A study of Mus musculus with 30 samples.

Results

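The data are 6 of the 30 libraries of the series, from mouse colonoids given TNF or vehicle. Colonoids are organoids grown from colon epithelium in culture. The members were taken by their titles as the TNF and vehicle libraries of the colonoid lines L42, L43 and L46, with 1 library of each treatment per line, and all 11688 genes the authors listed for the contrast were used. The series also holds colon epithelium with and without Smad4, cultured colonocytes, and colonoids given TGFB1 with BMP2. It concerns Smad4 signalling and the chemokine Ccl20, and the contrast here gives the response to TNF without those other ligands.

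The TNF libraries received TNF at 100 ng/mL and the controls received vehicle, with no other ligand in either group. The labels name no strain, age or sex of the source mice and no length of treatment, and they do not say what separates one line from another. Libraries of a group are called biological replicates in the series description, and each vehicle library has a TNF library of the same line, so the comparison was paired by line. With 3 pairs, an exact permutation test of a single gene cannot give a two-sided p below 0.25, and every p given below comes from a model fitted across all genes.

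TNF is an inflammatory cytokine made mainly by immune cells. Binding of TNF to its receptor Tnfrsf1a recruits adaptors and ubiquitin ligases, which activate the IKK kinases and release the transcription factor NF-kB from its inhibitors. NF-kB then raises chemokines that call in leukocytes, antimicrobial and survival genes, and its own inhibitors, which close the signal again. In the colon, TNF from the lamina propria acts on the epithelium in colitis, and an epithelial culture without immune cells shows what the epithelium itself does.

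Promoter sequences of the leading genes are shown because NF-kB acts through the DNA motif GGGNNNTTCC, where N is any base, read on both strands. The 4 promoters shown belong to Ccl20 and to C3, H2-M2 and Ubd, all among the genes with the largest rises. Each is the RefSeq stretch of 300 bases, from 250 before to 50 after the gene's start, on build GRCm38.p6 and written 5′ to 3′ on the strand of the gene, with matches to the motif in capitals.
Ccl20 (chr1:83116516-83116815, plus strand): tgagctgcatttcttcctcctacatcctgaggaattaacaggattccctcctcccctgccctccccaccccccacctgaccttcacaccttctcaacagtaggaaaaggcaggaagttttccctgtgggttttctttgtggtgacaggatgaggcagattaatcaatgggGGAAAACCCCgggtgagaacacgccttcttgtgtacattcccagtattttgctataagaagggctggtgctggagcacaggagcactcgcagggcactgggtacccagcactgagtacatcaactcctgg
C3 (chr17:57228087-57228386, minus strand): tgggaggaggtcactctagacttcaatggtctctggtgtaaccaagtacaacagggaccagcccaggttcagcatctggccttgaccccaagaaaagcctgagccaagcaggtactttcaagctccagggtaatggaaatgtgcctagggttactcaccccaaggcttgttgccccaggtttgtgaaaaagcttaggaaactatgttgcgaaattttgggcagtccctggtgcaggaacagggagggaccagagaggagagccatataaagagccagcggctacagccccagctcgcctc
H2-M2 (chr17:37483505-37483804, minus strand): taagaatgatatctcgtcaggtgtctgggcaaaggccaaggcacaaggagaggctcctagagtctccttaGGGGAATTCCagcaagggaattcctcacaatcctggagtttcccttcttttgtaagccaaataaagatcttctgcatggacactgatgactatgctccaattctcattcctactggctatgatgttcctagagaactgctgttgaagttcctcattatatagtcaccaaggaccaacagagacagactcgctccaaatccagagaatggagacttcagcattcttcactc
Ubd (chr17:37193642-37193941, plus strand): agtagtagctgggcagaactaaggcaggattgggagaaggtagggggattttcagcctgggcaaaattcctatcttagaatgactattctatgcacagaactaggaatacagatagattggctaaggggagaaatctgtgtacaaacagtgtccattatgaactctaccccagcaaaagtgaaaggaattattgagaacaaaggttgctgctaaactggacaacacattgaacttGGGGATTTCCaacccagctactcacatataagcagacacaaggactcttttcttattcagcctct
Ccl20 held 1 match, on the opposite strand, at bases 171 to 180 of the stretch. H2-M2 held 1 at bases 71 to 80 and Ubd 1 at bases 236 to 245, both on the strand of the gene, and these letters are not in the window of C3. Of all 27025 RefSeq promoters of this length, 5.52% held the motif. Among the tested genes, 9397 matched a promoter entry and 6.39% of these held it. The share was 13.1% of the 335 matched genes that rose with TNF and 5.36% of the 224 that fell. These shares describe sequence only, and a match is not a measured binding site.

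Ccl20, a chemokine whose receptor Ccr6 is carried by dendritic cells and lymphocytes, stood at 3.07, 3.90 and 1.11 CPM (counts scaled to library size, as the authors deposited them) in the vehicle libraries of L42, L43 and L46. With TNF it stood at 24.005, 36.6 and 8.57 CPM in the same lines. Every TNF library was above every vehicle library, and L46 was the lowest line under both treatments. The ratio of TNF to vehicle was 7.82 in L42, 9.38 in L43 and 7.70 in L46. On the log2(CPM + 1) scale, which is used for every change below and understates that of low genes, Ccl20 rose by 2.58 (SE 0.13, 95% interval 2.28 to 2.87, adjusted p = 1.97e-05, limma, Benjamini-Hochberg over all genes). Ccl20 also differed between the lines (adjusted p = 2.87e-04 by limma). When the pairing by line was ignored, the same rise had an adjusted p of 0.304.

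Across the 11688 genes, TNF changed 718 at an adjusted p under 0.05 (6.14% of those tested). It raised 439 (3.76%) and lowered 279 (2.39%). All of them moved the same way in all 3 lines, which a test paired over these lines favours. The rises reached further than the falls, since 37 genes rose by more than 1 on the log2 scale and 3 fell by more than 1. The TNF and vehicle groups did not overlap for 245 of the 439 genes that rose and for 84 of the 279 that fell, against 7.61% of all genes. The pairing carries these counts: with the lines not paired, 14 genes rose and 2 fell. The total was 904, 2910 and 394 without L42, L43 and L46. Those fits have 1 residual degree of freedom and a prior close to a common variance. Their counts, here and for the lists below, are therefore not directly comparable with those of the full fit.

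**Figure D1:**
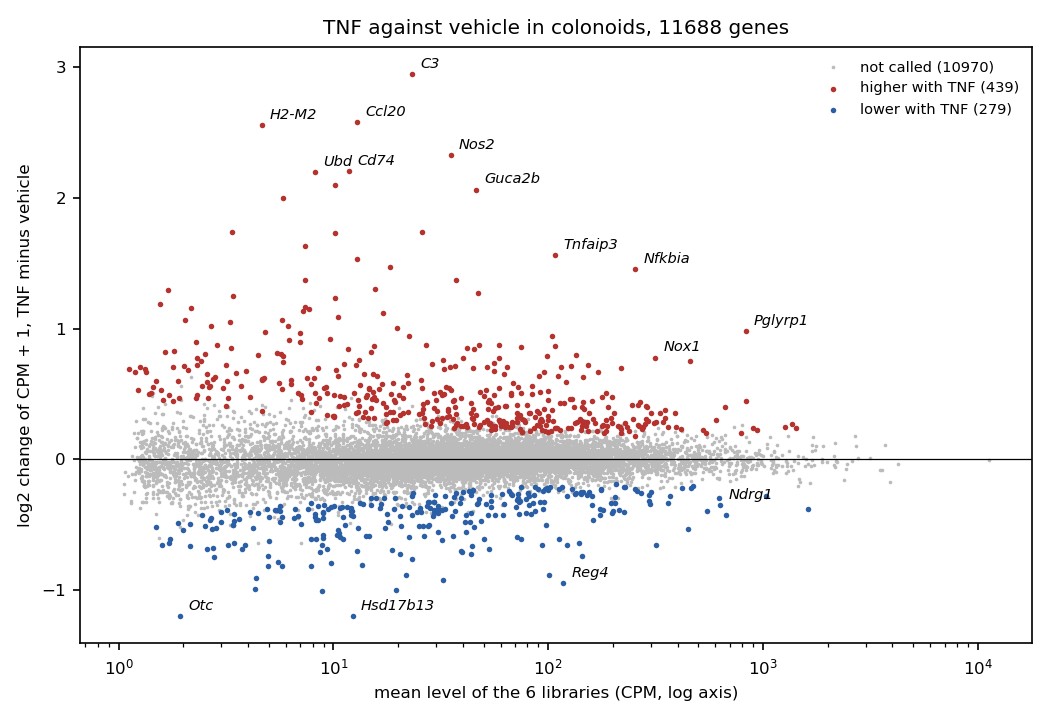
The log2 change of CPM + 1 (TNF minus vehicle, vertical) is plotted against the mean level of the 6 libraries (CPM, log axis) for each of 11688 genes, with the 439 called higher in red, the 279 called lower in blue and the others in grey. The rises extend to 2.94 (C3) and the falls to -1.198 (Hsd17b13 and Otc).

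Line was a larger source of variation than TNF. Of all genes, 31.1% differed between the lines (3639, F test of limma), among them 491 of the 718 that changed with TNF. Both tests use the same residual spread of each gene, which favours an overlap of their calls. The first principal component held 49.0% of the variance and set L43 apart from the other lines, the second (25.1%) parted L42 from L46, and the third (18.2%) parted TNF from vehicle in every line. Among the 6 genes with the strongest line difference was Xist, the RNA that coats the inactive X chromosome, at 927, 3.06 and 981 CPM in vehicle and 882, 2.51 and 994 CPM with TNF, low in L43 under both treatments. The Y-linked genes Ddx3y, Eif2s3y, Kdm5d and Uty are not listed in the table. Cbx6, a chromodomain protein gene, was likewise low in L43 (62.1, 7.08 and 79.3 CPM in vehicle). Thbs4, a matrix glycoprotein gene, was highest in L43 (14.03, 111 and 42.5 CPM in vehicle). What distinguishes L43 was not tested. Depth over the listed genes was 42.2 to 61.7 M reads per library and 1 read was worth 0.0166 to 0.0235 CPM. The epithelial marker Epcam had near-equal levels in every library (1600.2, 1618 and 1575 CPM in vehicle, 1534, 1572 and 1531 CPM with TNF). Of 16 colon identity genes 1 was called, the lower Car1, which is near the share of all genes called (6.14%). The count was 7 without L43 and 4 without L42.

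**Figure D2:**
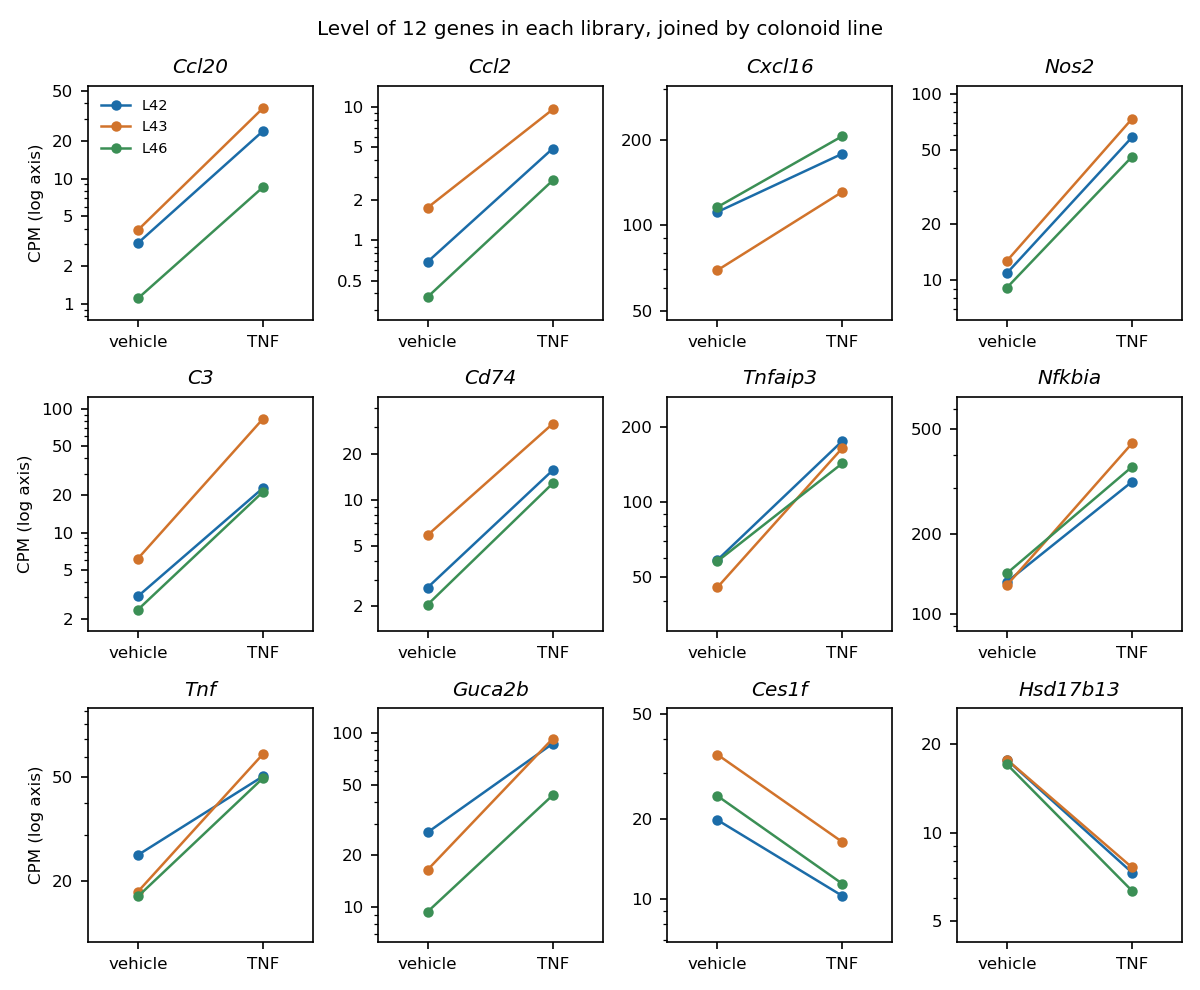
The level of 12 genes (CPM, log axis) is plotted for vehicle and TNF, 1 point per library, with the 2 libraries of a line joined and coloured by line. The first 10 genes rise and Ces1f and Hsd17b13 fall in every line, and for Ccl20 the line order L43, L42, L46 is kept under both treatments.

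The inhibitors that close the NF-kB signal rose in 8 of 15 measured members, with none lower, against 3.76% of all genes higher and 2.39% lower. The same shares of all genes apply to every list below. Tnfaip3, which encodes the ubiquitin-editing enzyme A20, went from 58.6, 45.5 and 57.9 CPM in L42, L43 and L46 to 176, 165 and 143 CPM. Nfkbia, the inhibitor IkB-alpha that holds NF-kB in the cytoplasm, went from 132, 128 and 142 to 317, 443 and 361 CPM. For both genes the groups stood well apart and L43 moved most. The changes were 1.56 (SE 0.09, adjusted p = 3.10e-05 by limma) and 1.46 (SE 0.09, adjusted p = 4.24e-05). Nfkbie, another IkB protein, rose by 0.81 and Tnip3, an A20-binding protein, by 0.67. Bcl3, Cyld, N4bp1 and Tnip1 rose by 0.26 to 0.46. The median change of the list was 0.31, against -0.0036 over all genes, and the count was 5 without a mean-variance trend.

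Among 15 NF-kB subunits and kinases, 4 rose and none fell. Nfkb2 and Relb, which form the dimer of the alternative NF-kB pathway, rose by 0.64 (SE 0.07, adjusted p = 8.88e-04 by limma) and 0.56 (SE 0.07, adjusted p = 0.00227). The kinase gene Ikbke rose by 0.56 and Nfkb1, the p105/p50 precursor, by 0.24. Rela, the main activating subunit of the classical pathway, was 62.0, 53.2 and 66.4 CPM in vehicle and 67.1, 72.1 and 77.0 CPM with TNF, groups that do not overlap, with an adjusted p of 0.0664. The list count was 9 without L43.

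The receptor itself was not among the called genes: Tnfrsf1a was 80.1, 72.7 and 79.1 CPM in vehicle and 71.9, 73.7 and 77.8 CPM with TNF (change -0.05, 95% interval -0.18 to 0.07). In the list of receptor complex and survival genes, 8 of 24 rose and none fell. Birc3, the ubiquitin ligase cIAP2 of the receptor complex, went from 51.9, 53.2 and 53.3 to 94.8, 93.4 and 102 CPM, with near-equal levels in the 3 lines on each side (change 0.86, SE 0.05, adjusted p = 4.45e-05 by limma). The second TNF receptor gene Tnfrsf1b rose by 0.41, the adaptor genes Traf3 and Traf2 by 0.32 and 0.31, and the anti-apoptotic Tnfaip8 and Bcl2l1 by 0.34 and 0.21. Tnfaip2, a TNF-induced gene, rose by 0.65 and was lowest in L43 on both sides (19.0, 4.08 and 13.0 CPM in vehicle). Casp8, which starts the death arm of the same receptor, rose by 0.25. Without L46 the list count was 2.

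Genes of other TNF family ligands and receptors rose in 7 of 18 measured members. Tnf itself, the ligand that was added as protein, went from 25.2, 18.3 and 17.5 to 50.5, 61.4 and 49.7 CPM. All TNF libraries lay above the highest vehicle library, and L43 rose most (0.97, 1.70 and 1.45 in L42, L43 and L46). The change was 1.37 (SE 0.12, adjusted p = 2.11e-04 by limma). Ltb, a subunit of the lymphotoxin ligand, was under 1 CPM in every vehicle library (0.930, 0.294 and 0.358) and reached 4.58, 1.62 and 2.42 CPM. Tnfsf10, the death ligand TRAIL, rose by 1.12 and the T-cell costimulator gene Tnfsf15 by 0.62. Tnfrsf11a, the receptor RANK, and Tnfrsf11b, its decoy receptor osteoprotegerin, rose by 0.43 and 0.71. The count of the list was 4 among genes of at least 10 CPM and 13 without L43.

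Chemokine genes rose in 8 of 12 measured members and none fell, with a median change of 0.68. Ccl2, which attracts monocytes, went from 0.692, 1.76 and 0.377 to 4.89, 9.61 and 2.82 CPM, with L43 highest and L46 lowest on both sides (change 1.74, SE 0.12, adjusted p = 6.76e-05 by limma). Cxcl16, a transmembrane chemokine that binds the receptor Cxcr6, stood at 111, 69.5 and 116 CPM in vehicle and 178, 131 and 206 CPM with TNF. In Cxcl16 L43 was the lowest line, the reverse of its place in Ccl20 and Ccl2. The interferon-related Cxcl11 and Cxcl10 rose by 1.19 and 0.83 and the neutrophil attractants Cxcl1 and Cxcl5 by 0.78 and 0.58, all from under 7 CPM. Cxcl11, counted among the 8, is a transcribed pseudogene in the RefSeq annotation used. Ccl28, a mucosal chemokine, stood at 52.2, 88.7 and 44.3 CPM in vehicle and 61.1, 81.0 and 45.9 CPM with TNF (adjusted p = 0.807). Of the chemokines that rose, Ccl20, Cxcl16 and Ccl9 reached a mean of 10 CPM, and 3 were called when genes below it were left out.

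Cytokine and growth factor genes rose in 6 of 18. Csf1, the macrophage growth factor, went from 4.76, 4.27 and 3.32 to 14.1, 8.39 and 9.46 CPM and Il34, the other ligand of the same receptor, from 5.75, 5.57 and 7.16 to 8.62, 9.39 and 14.5 CPM. Both had non-overlapping groups, but different lines led: L42 moved most in Csf1 and L46 in Il34. Lif, Edn1, Pdgfb and Areg rose by 0.44, 0.45, 0.41 and 0.22. Without L43 the count of the list was 10.

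Antimicrobial and oxidase genes rose in 11 of 25 and fell in 2. Nos2, the inducible nitric oxide synthase, went from 10.9, 12.7 and 9.12 to 58.4, 73.4 and 45.9 CPM, a ratio of 5.35 in L42, 5.78 in L43 and 5.04 in L46. Its change of 2.32 (SE 0.07, adjusted p = 8.32e-07 by limma) had one of the narrowest spreads over lines among the large rises. Subunits of the epithelial oxidases moved with it: Duox2, which makes hydrogen peroxide at the apical surface, went from 55.1, 34.9 and 40.8 to 78.8, 76.1 and 67.8 CPM and its maturation factor Duoxa2 rose by 0.87. Nox1, the colonic NADPH oxidase, went from 191, 353 and 165 to 357, 515 and 307 CPM, and its partners Cyba and Noxo1 rose by 0.72 and 0.32. Ncf4, a phagocyte oxidase subunit, went from 2.51, 5.62 and 0.678 to 10.5, 35.3 and 6.25 CPM, with L43 highest on both sides. Slpi, a protease inhibitor of mucosal secretions, rose by 1.07, the muramyl peptide sensor Nod2 by 0.96 and the lipopeptide receptor Tlr2 by 0.42. In the other direction, the flagellin receptor Tlr5 fell by 0.52. Reg4, a secreted lectin of deep crypt cells, went from 230.1, 163 and 66.1 to 123, 90.3 and 30.5 CPM, a change of -0.94 (SE 0.06, adjusted p = 5.20e-05 by limma). In Reg4 the groups overlapped, since the TNF libraries of L42 and L43 lay above the vehicle library of L46.

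**Figure D3:**
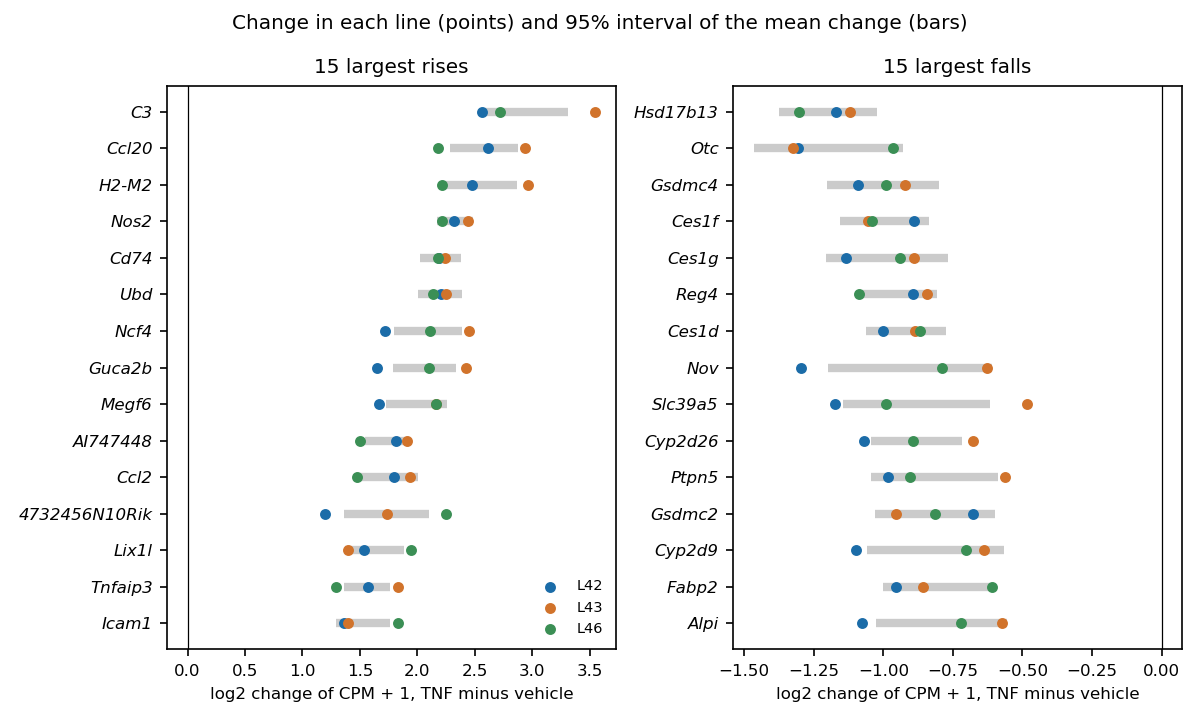
Points give the log2 change of CPM + 1 (TNF minus vehicle) in L42, L43 and L46 for the 15 genes with the largest rises (left) and the largest falls (right), and grey bars the 95% interval of the mean change (n = 3 pairs). Each gene lies on one side of 0 in all lines, as the rule for choosing them requires. Nos2, Cd74 and Ubd have the closest points among the rises.

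C3, the central complement protein, had the largest rise of all called genes on the log2(CPM + 1) scale. It went from 3.07, 6.19 and 2.39 to 22.97, 83.3 and 21.4 CPM, with L43 far above the other lines after TNF, and its ratio of TNF to vehicle was 7.48, 13.4 and 8.94 in L42, L43 and L46. The change was 2.94 (SE 0.16, 95% interval 2.58 to 3.31, adjusted p = 3.10e-05 by limma). Of the 10 measured genes of the complement and acute phase list 3 rose, the others being Cp, the copper oxidase ceruloplasmin (1.003), and Cd55, which limits complement on the cell surface (0.27). Saa1, an acute phase protein, stood at 32.0, 80.9 and 18.6 CPM in vehicle and 27.2, 81.7 and 14.8 CPM with TNF (adjusted p = 0.259). The list median was 0.42 in L42, 0.15 in L43 and -0.07 in L46, and the count was 5 without L43.

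Antigen processing genes rose in 10 of 23, with 1 lower, against 3.76% of all genes higher and 2.39% lower. Cd74, the invariant chain that guides class II molecules, went from 2.66, 5.88 and 2.05 to 15.6, 31.6 and 12.8 CPM (change 2.20, SE 0.08, adjusted p = 2.33e-06 by limma). The rise was nearly equal in the lines (2.19, 2.24 and 2.18) although L43 began highest. The class II genes H2-Aa and H2-Eb1 and their activator Ciita are not listed in the table, so no value for them is given. Among class I genes, B2m went from 239.5, 237 and 197 to 325, 316 and 259 CPM and the peptide editors Tapbp and Tapbpl rose by 0.59 and 0.51. The immunoproteasome subunits Psmb8, Psmb9 and Psmb10 rose by 0.61, 0.34 and 0.38, and the peptide transporter Tap2 by 0.35. The heavy chain H2-K1 stood at 599, 338 and 613 CPM in vehicle and 572, 410.0 and 661 CPM with TNF (adjusted p = 0.479). H2-M2, a nonclassical class I gene outside the list, was under 1 CPM in vehicle (0.540, 0.764 and 0.433) and reached 7.59, 12.8 and 5.63 CPM. Reads of class I genes, which are near copies of one another, may be shared between them. Without L46, 7 members of the list were called.

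Interferon-stimulated genes rose in 7 of 35 and fell in 1, against 3.76% of all genes higher and 2.39% lower. The 1 fall is near the background. Gbp6, a guanylate-binding protein, rose from 0.713, 1.35 and 0.867 to 3.48, 3.83 and 2.85 CPM. The transcription factor Irf1 rose by 0.50, the RNA sensor Ddx58 by 0.49 and Parp14 by 0.50. The list median was 0.11 and the count 13 without L43. Ubd, a ubiquitin-like modifier that TNF and interferon gamma are known to induce, went from 2.08, 2.21 and 2.56 to 13.2, 14.2 and 14.6 CPM, with all lines close on both sides (change 2.20, SE 0.08, adjusted p = 2.95e-06 by limma).

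Genes of M cells and of the epithelium over lymphoid follicles rose in 9 of 10 measured members, with a median change of 0.57. Besides Ccl20, Ubd, Ccl9, Tnfaip2, Tnfrsf11a and Tnfrsf11b, which are named above, the list holds Pglyrp1, a peptidoglycan-binding antibacterial protein. Pglyrp1 went from 561, 533 and 579.9 to 980.2, 1202 and 1128 CPM, groups far apart (change 0.98, SE 0.07, adjusted p = 6.76e-05 by limma). Anxa5 and Marcksl1 rose by 0.48 and 0.28. The M cell receptor Gp2 and the M cell transcription factors Spib and Sox8 are not listed in the table. Members also stand in the chemokine, receptor complex and TNF family lists, so these counts share genes. In bulk libraries, more cells of a type and more RNA per cell cannot be told apart.

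Genes of wound and fetal-like epithelium rose in 10 of 25 with none lower. Lama3 and Lamb3, laminin chains of the basement membrane, rose by 0.63 and 0.29. The integrin genes Itgb6 and Itga2 rose by 0.70 and 0.67. Mmp7, the matrix protease that activates defensins in mouse, went from 145, 40.5 and 46.4 to 242, 73.7 and 94.7 CPM. L42 held the highest Mmp7 on both sides, and the L42 vehicle library exceeded 2 of the TNF libraries. The surface protein Ly6a rose by 0.24. Without L46 the count was 5 and without L43 it was 20.

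Adhesion and barrier genes split, with 4 higher and 2 lower of 21. Icam1, the ligand of leukocyte integrins, went from 4.84, 9.29 and 4.43 to 13.98, 26.0 and 18.4 CPM (change 1.53, SE 0.10, adjusted p = 6.76e-05 by limma), and here L46 moved most. Cldn4 and Cgn, tight junction genes, rose by 0.40 and 0.31. Mylk, whose kinase contracts the ring beneath tight junctions, rose by 0.31 (adjusted p = 0.0494). Cldn2, which forms a cation pore, went from 165, 234 and 105 to 119, 145 and 61.6 CPM, a change of -0.64 (SE 0.06, adjusted p = 5.16e-04 by limma), and Cldn8 fell by 0.56. Tjp1 stood at 218, 208 and 278 CPM in vehicle and 245, 211 and 315 CPM with TNF (adjusted p = 0.264). The list count was 3 without a mean-variance trend and 13 without L43.

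Cell death genes rose in 7 of 24 and fell in 3. The inflammatory caspase Casp4, which senses cytosolic lipopolysaccharide, rose by 0.71 (SE 0.06, adjusted p = 3.02e-04 by limma), and its pore-forming substrate Gsdmd by 0.42. Pmaip1, a BH3-only protein, went from 57.4, 63.1 and 62.8 to 79.1, 82.8 and 83.8 CPM with little spread between lines. The gasdermin genes Gsdmc4 and Gsdmc2 fell by 1.001 and 0.81, and the inflammasome sensor Nlrp6 by 0.46. Gsdmc4 was 3.98, 28.6 and 3.39 CPM in vehicle and 1.34, 14.6 and 1.21 CPM with TNF, so L43 alone held most of it. Gsdmc genes are near copies and their reads may be shared.

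**Figure D4:**
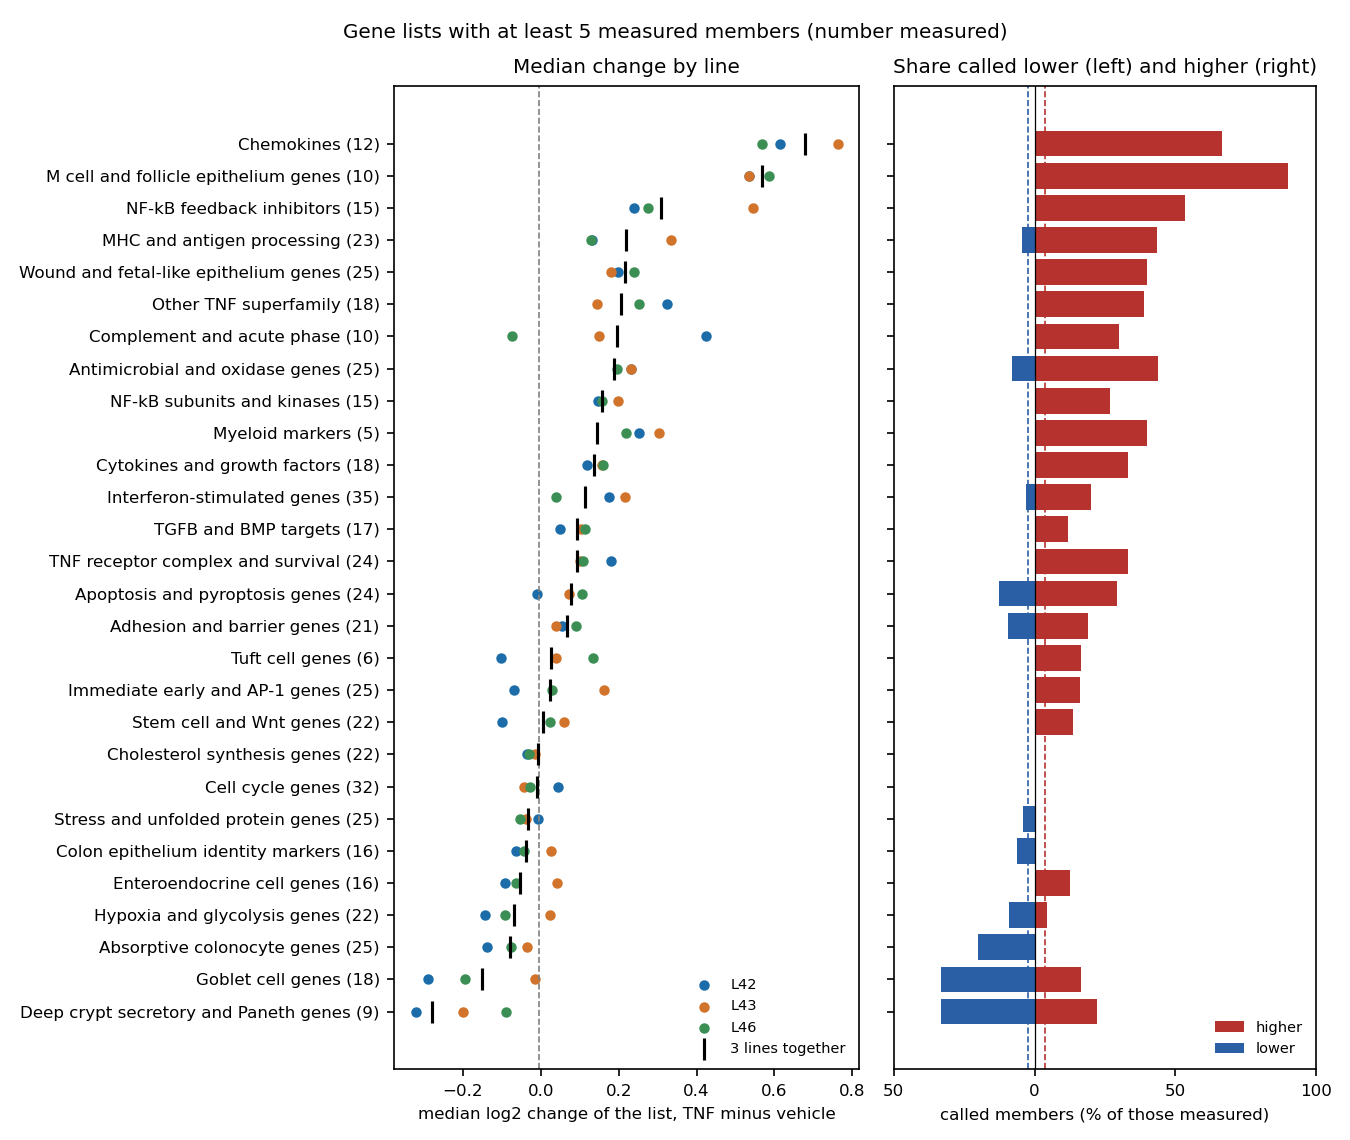
For each gene list with at least 5 measured members, the left panel plots the median log2 change (TNF minus vehicle) in each line and over the 3 lines, with the median of all genes dashed, and the right panel the percent of members called higher (red) and lower (blue), with the shares of all genes dashed. Chemokines and M cell genes have the highest medians (0.68 and 0.57), deep crypt and goblet genes the lowest (-0.28 and -0.15).

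Markers of differentiated cells differed in direction between cell types. Of 25 absorptive colonocyte genes, 5 fell and none rose. Aqp8, the water channel of surface colonocytes, went from 46.6, 151 and 52.9 to 29.8, 116 and 30.5 CPM, a change of -0.59 (SE 0.08, adjusted p = 0.00208 by limma), with L43 far above the other lines on both sides. Car1, the carbonic anhydrase of colonic surface cells, fell from 2166, 1992 and 1387 to 1519.9, 1526 and 1169.7 CPM. Fabp2, the fatty acid-binding protein, fell by 0.81, Tmigd1, a brush border adhesion protein, by 0.57 and Hsd17b2 by 0.41. Krt20 stood at 113, 170.2 and 83.7 CPM in vehicle and 98.1, 160.3 and 67.0 CPM with TNF (adjusted p = 0.0839). Alpi, the brush border alkaline phosphatase outside this list, fell by 0.79. The count of the list was 13 without L43.

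Goblet cell genes went both ways, with 6 lower and 3 higher of 18. The secreted lectin Zg16 went from 86.6, 186 and 69.7 to 53.1, 123 and 43.6 CPM and fell by 0.65 (SE 0.05, adjusted p = 1.60e-04 by limma). The trefoil peptide Tff3, the mucus-associated Fcgbp and Clca3 fell by 0.38, 0.42 and 0.40. Muc2, the gel-forming mucin, was 382, 156 and 199 CPM in vehicle and 281, 206 and 179 CPM with TNF, lower in L42 and L46 and higher in L43. Guca2a and Guca2b are guanylins, which stimulate fluid secretion through guanylate cyclase C. Guca2b, which is outside the list, went from 26.8, 16.4 and 9.40 to 86.5, 92.4 and 43.8 CPM with no overlap, and rose by 2.06 (SE 0.12, adjusted p = 3.42e-05 by limma). Guca2a rose by 0.94, least in L42 (0.47, 1.33 and 1.02). The symbols Clca1 and Muc4 rose by 0.61 and 0.30. Clca1 and Clca3 lead to the same RefSeq locus, so which gene each symbol stands for was not resolved. The count of the list was 16 without L43.

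Stem cell and Wnt genes rose in 3 of 22, against 3.76% of all genes. Ascl2, a stem cell transcription factor, rose by 0.53 (SE 0.07, adjusted p = 0.00206 by limma), and Slc12a2 and Aqp4 by 0.27 and 0.36. Lgr5, the stem cell receptor, was 212, 129.7 and 166 CPM in vehicle and 182, 124 and 146 CPM with TNF, lower in all lines with an adjusted p of 0.134. The count was 1 without L46 and 10 without L43. Of 9 deep crypt secretory and Paneth genes 2 rose, Mmp7 and Ang4 (0.46), and 3 fell, Reg4, Spink4 (-0.28) and Kit (-0.34). Enteroendocrine genes rose in 2 of 16, namely Tph1, which makes serotonin (0.73), and Cpe, a hormone-processing enzyme (0.58). The hormone gene Pyy was 27.8, 54.2 and 31.2 CPM in vehicle and 24.6, 51.2 and 26.1 CPM with TNF (adjusted p = 0.201). Of 6 tuft cell genes Ptgs1 rose (0.81). Without L43 the counts were 9 deep crypt, 4 enteroendocrine and 4 tuft cell genes.

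In 2 large lists no gene passed the test of limma. None of 32 cell cycle genes was called (median -0.0095, 4 at an unadjusted p under 0.05), with Mki67 at 531, 501 and 754 CPM in vehicle and 676, 515 and 826 CPM with TNF (adjusted p = 0.169). None of 22 cholesterol synthesis genes was called (median -0.0078, 3 at an unadjusted p under 0.05). At an unadjusted p under 0.05, 2028 of all genes passed, against 718 adjusted. Without L43, 8 cell cycle and 7 cholesterol genes were called. Immediate early and AP-1 genes rose in 4 of 25, with Ier3 (0.46) and Junb (0.40) among them. Of the 22 hypoxia and glycolysis genes, Pfkfb3 rose (0.35) and Ndrg1 and Ankrd37 fell (-0.35 and -0.33). The stress list held 1 fall in 25, Trib3 (-0.37). Beside 3.76% of all genes higher and 2.39% lower, the 1 rise among hypoxia genes and the 1 fall among stress genes are near the background. Among TGFB and BMP targets, Skil and Atoh8 rose (0.25 and 0.47), 2 of 17. Without L43 the counts were 9 immediate early, 11 hypoxia, 3 stress and 6 TGFB and BMP genes, and without L46 they were 2, 1, 0 and 1.

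Markers of other cells were few. Of 13 pan-leukocyte markers 3 are listed, and the pan-leukocyte antigen Ptprc is not. Their summed level was 15.2 to 22.5 CPM in vehicle and 26.9 to 36.0 CPM with TNF, and Cytip (3.52, 6.10 and 3.00 to 10.3, 12.5 and 7.84 CPM) and Lcp1 rose. Of 16 myeloid markers 5 are listed, without Csf1r or Adgre1, and their sum was 157 to 237 CPM in vehicle and 173 to 282 CPM with TNF. Mrc1 (0.68) and Cd14 (0.30) rose. Among 15 stromal markers 2 are listed, at a sum of 5.45 to 7.78 CPM in vehicle and 6.20 to 7.73 CPM with TNF, and Col1a1 and Acta2 are not listed. Endothelial markers had 2 of 10 listed and none called, and none of 17 lymphocyte markers is listed. The part of other cells in the results was not tested.

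Enzyme families of drug and ester metabolism held many falls, against 2.39% of all genes lower. The families were picked after their values were seen, so their counts are a description. Of 10 carboxylesterase genes, which hydrolyse esters and drugs, 8 fell and none rose, with a median change of -0.65. Ces1f went from 19.8, 35.1 and 24.5 to 10.2, 16.4 and 11.4 CPM with no overlap, a change of -0.995 (SE 0.07, adjusted p = 7.88e-05 by limma). Ces1g, Ces1d and Ces2a fell by 0.99, 0.92 and 0.76, and Ces2e went from 147, 163 and 94.1 to 97.2, 110.2 and 59.0 CPM. Cytochrome P450 genes fell in 11 of 28 with none higher. Cyp2d26 went from 123, 173 and 92.9 to 58.2, 108 and 49.6 CPM (a change of -0.88, SE 0.07, adjusted p = 1.90e-04 by limma), and Cyp2d9 fell by 0.81. Of 21 glutathione transferase genes 6 fell, with Gstm1 going from 159, 211 and 164 to 95.3, 136 and 91.1 CPM. Ces1 and Cyp2d genes are clustered near copies, so reads may be shared within each family.

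The largest falls included other metabolic enzymes. Hsd17b13, a lipid droplet enzyme known from liver, went from 17.7, 17.7 and 17.1 to 7.30, 7.604 and 6.33 CPM, with near-equal levels in the 3 lines on each side. It fell by 1.198 (SE 0.08, 95% interval -1.37 to -1.02, adjusted p = 5.29e-05 by limma) and passed the test without the pairing as well. Otc, the urea cycle enzyme, went from 3.16, 4.86 and 1.34 to 0.681, 1.34 and 0.199 CPM, a change of -1.198. The zinc transporter Slc39a5 fell by 0.88, with the smallest fall in L43 (-1.17, -0.48 and -0.99). Nov, a matricellular protein, and Ptpn5, a tyrosine phosphatase, fell by 0.90 and 0.82. Sepp1, the selenium carrier, went from 109.99, 268 and 70.6 to 67.5, 177 and 44.2 CPM and fell by 0.65.

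Large rises outside the lists were in Megf6 (1.79, 1.92 and 1.43 to 7.87, 12.03 and 9.86 CPM), an EGF-repeat protein, and Slc2a6, a hexose transporter of lysosomes (16.9, 4.27 and 9.06 to 33.0, 23.2 and 23.7 CPM). AI747448, Lix1l and 4732456N10Rik rose by 1.74, 1.63 and 1.73. Slc2a6 and 4732456N10Rik were also among the 8 genes of at least 10 CPM whose change differed most between lines. In Slc2a6 the changes were 0.92, 2.20 and 1.297 in L42, L43 and L46, and in 4732456N10Rik they were 1.197, 1.74 and 2.25. Mptx1, a mucosal pentraxin, was higher with TNF in L42 and lower in L43 (1.05, -0.56 and 0.08), and Spp1 (0.59, -0.62 and 0.18), Igfbp4 (0.78, -0.33 and -0.01) and Hoxb6 (-0.51, 0.60 and -0.49) also changed sign between lines. With 1 library per line and treatment, a difference between lines has no replicate, so these are values with no test.

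As a description of genes already chosen by a test that favours like changes in the 3 lines, median changes of the 439 that rose were 0.40, 0.41 and 0.45 in L42, L43 and L46, and those of the 279 that fell were -0.44, -0.33 and -0.41. Among genes that fell, L42 had the largest fall in 140, L43 in 62 and L46 in 77. Of those that rose, L43 had the largest rise in 176, L46 in 150 and L42 in 113. Across all 11688 genes, which are not independent replicates, the change in L42 correlated with that in L46 at r = 0.74, L43 with L46 at 0.57 and L42 with L43 at 0.36.

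By its title the series asks how Smad4 signalling alters the induction of Ccl20. The other 6 colonoid libraries give the TNF effect in the presence of ligands of that pathway (TGFB1 at 3 ng/mL, BMP2 at 10 ng/mL). That effect compares libraries with all 3 ligands against those with TGFB1 and BMP2, so it shares no library with the effect above. In 11413 genes joined over the tables, with line as an additive block, no gene had a TNF effect that differed at an adjusted p under 0.05 (limma, 322 at an unadjusted p under 0.05). In that fit TNF with the other ligands raised 82 genes (0.718%) and lowered 179 (1.57%). An additive block gives each line 1 offset over both ligand backgrounds. A fit that pairs each line within each background was added after that result had been seen. It called 189 genes (1.66%), 164 with a lower effect in the presence of the other ligands and 25 with a higher one. In the same fit TNF with the other ligands raised 757 genes (6.63%) and lowered 1035 (9.07%). Of the 413 genes called higher above and tested here, 38 differed by this fit, 32 of them with the lower effect in the presence of the other ligands. Of the 267 called lower, 37 differed, 34 of them with the more negative effect in the presence of the other ligands. The 413 and 267 genes were chosen by their effect of TNF alone, which enters the difference, so these counts are a description.

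Among the genes with the largest rises that were tested in both backgrounds, C3 had the widest gap between them. On the joint scale it was 2.88, 5.92 and 2.27 CPM in vehicle and 21.7, 79.0 and 20.4 CPM with TNF, against 0.439, 0.427 and 0.675 CPM with TGFB1 and BMP2 and 0.751, 0.937 and 1.41 CPM with all 3 ligands. The ratio of TNF to its matched library was 7.54, 13.3 and 8.97 alone and 1.71, 2.20 and 2.09 with the other ligands. The difference of the log2 changes was -2.51 (SE 0.55, unadjusted p = 0.00136, adjusted p = 0.641 by limma with the additive block; adjusted p = 1.49e-04 with the paired one). C3 was near or under 1 CPM with the other ligands, where the added 1 CPM flattens a change, and the ratios differ as well. Cd74 had ratios of 5.93, 5.33 and 6.26 alone and 2.12, 3.18 and 2.84 with the other ligands. For Guca2b the ratios were 3.25, 5.60 and 4.67 alone and 6.56, 4.75 and 5.62 with them, and the difference was 0.23 (adjusted p = 0.688 by the paired fit). Tnfaip3 differed by 0.15 (adjusted p = 0.867). Lypd8, a surface cell protein that binds bacterial flagella, showed the smallest p of the paired fit: its TNF effect was 0.12 alone and -1.13 with the other ligands. Ccl20 is not listed for TGFB1 with BMP2 against vehicle, so its difference was not tested. In the separately normalized table of all 3 ligands against TNF, Ccl20 was 1.29, 1.48 and 1.56 CPM with all 3 and 21.9, 33.4 and 7.80 CPM with TNF. There H2-M2 was 0.446, 0.794 and 1.4 CPM with all 3 and 6.91, 11.7 and 5.13 CPM with TNF. Ncf4 was 0.587, 8.50 and 1.65 CPM with all 3 and 9.61, 32.2 and 5.69 CPM with TNF. Genes missing from any of the joined tables are outside the ranking of gaps.

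**Figure D5:**
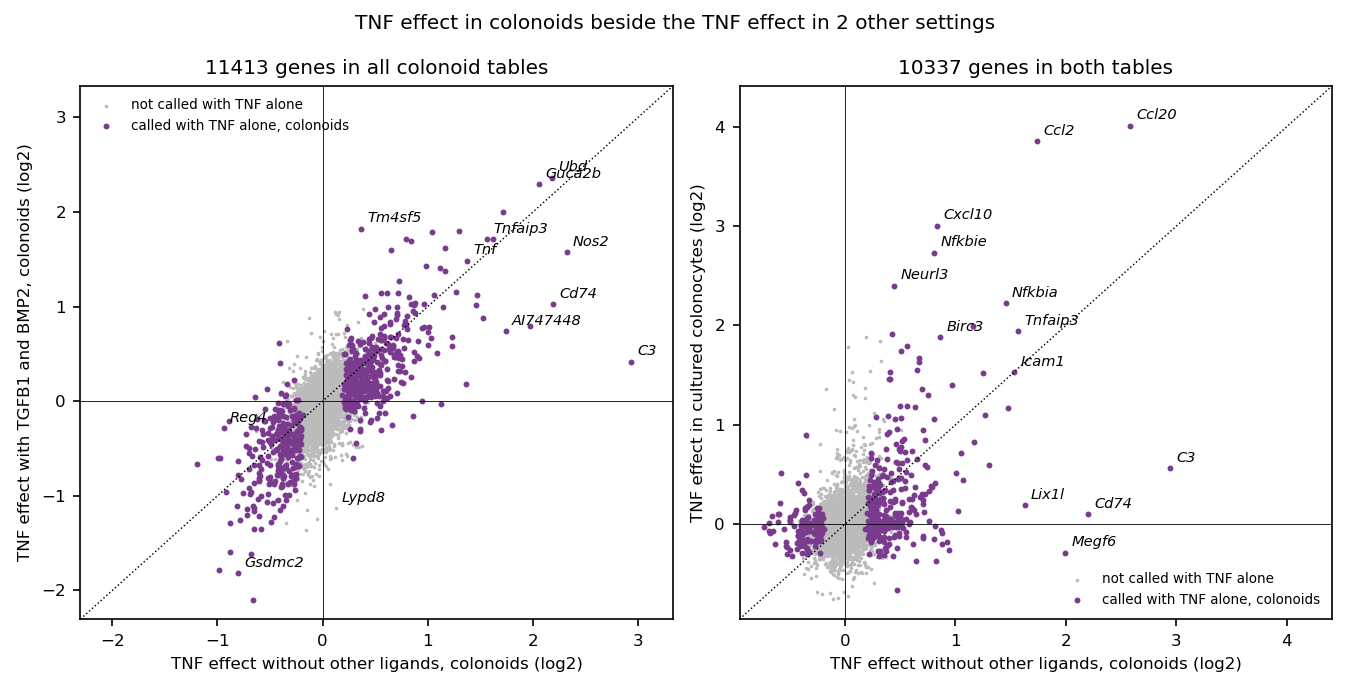
Each point is a gene, with its TNF effect in colonoids (log2 change of CPM + 1, horizontal) beside its effect in the presence of TGFB1 and BMP2 (left, 11413 genes) or in cultured colonocytes (right, 10337 genes); genes called with TNF alone in colonoids are purple and the dotted line marks equal effects. C3 lies far below the line in both panels, and Ccl20 and Ccl2 lie above it on the right.

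The TNF response of the colonoids was also set beside that of the cultured colonocytes, labelled IMCfl/fl Smad4+, in the 10337 genes listed for both. No TNF dose or time is named for the colonocytes, and the systems differ in culture and library set, which cannot be told apart from a difference in response. In the colonocytes TNF raised 481 genes (4.65%) and lowered 177 (1.71%). The effect differed between the systems in 344 genes (3.33%), with 146 higher in colonoids and 198 lower. Of 309 genes that rose in colonoids and were tested in colonocytes, 115 rose there and 3 fell. Of 130 that fell in colonoids, 4 fell and 5 rose.

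Ccl20 rose from 2.38, 3.18 and 2.06 CPM to 60.1, 60.8 and 46.9 CPM in colonocytes, a rise of 4.01 (SE 0.15), and the difference from colonoids was -1.43 (SE 0.21, adjusted p = 0.00138 by limma). Control levels, from separately normalized tables, were 1.11 to 3.90 CPM in colonoids and 2.06 to 3.18 CPM in colonocytes. Ccl2 differed by -2.12 (adjusted p = 4.52e-06), and it stood at 81.4, 77.3 and 68.9 CPM in colonocytes before TNF, far above the colonoids. Among the feedback genes, Nfkbia differed by -0.77 (adjusted p = 0.00270), Nfkbie by -1.92 (adjusted p = 2.16e-05) and Tnfaip3 by -0.38 (adjusted p = 0.154). Icam1 rose by 1.53 in colonoids and 1.53 in colonocytes (difference 0.00, SE 0.16). Genes with a larger rise in colonoids included C3 (difference 2.38, SE 0.20, adjusted p = 2.20e-05), Megf6 (2.28) and Lix1l (1.44). Cd74 was 46.3, 44.1 and 77.2 CPM in untreated colonocytes and 47.1, 50.1 and 83.0 CPM with TNF, and the difference was 2.101 (SE 0.28, adjusted p = 7.85e-04). Neurl3, Abtb2, Hivep2 and Mcc had a smaller response in colonoids, with differences of -1.95, -1.76, -1.23 and -0.91. Nos2, Guca2b, Ubd and Tnf are not listed for the colonocytes and were not compared.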

How the data were processed

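Each deposited value is a CPM, read as a signal: reads per gene scaled by the authors to an effective library size, inferred from the values, since low values are whole multiples of the value of 1 read in each library but the columns do not sum to a common total. The submitters' processing notes list, without their order or any strand setting, the build mm10 and edgeR 3.4.2, HTSeq 0.5.4p5, TopHat2 2.1.0, SAMtools 1.3.1, bcl2fastq 2.16 and CASAVA. Per the labels, RNeasy columns gave the RNA, the TruSeq Stranded mRNA chemistry gave the libraries, and sequencing was paired-end. The authors listed genes above a low-expression limit whose rule no label states, so a gene that is not listed has no value. Their fold changes and p-values were not used.

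Levels were taken as log2(CPM + 1) and fitted with limma 3.58.1 (R 4.3.3, empirical Bayes with a mean-variance trend) with treatment and line as terms, over all 11688 genes with a mean of at least 1 CPM. A gene is called changed, or rose or fell, at an adjusted p under 0.05. SEs and 95% intervals come from that fit with n = 3 pairs. Deviations from the group means correlated at 0.739, 0.795 and 0.887 between the libraries of one line, so line pairs the samples. Between lines they correlated at -0.584 to -0.150, and values below 0 there follow in part from subtracting the group means. The TNF effect with TGFB1 and BMP2 was compared over 12 libraries and 11413 genes after rescaling the deposited CPM of the separate tables by medians of ratios, where scaling of recovered counts had been planned. The colonocyte comparison covered 10337 genes and used TNF effects within each table, with sample weights by culture system. The pipeline was tested on simulated data for TNF against vehicle, over 11688 genes. It recovered 95% of 100 genes with a change of 0.5 and 100% of 100 genes with a change of 1. Of the called genes 7.58% were false, above the threshold of 0.05. Noise was drawn independently for each gene with the fitted spread, so deviations shared between genes were not covered. The planned tests on whole read counts were not run; whole multiples were checked among low values only.

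Genes named by rule were Ccl20, the 15 largest rises and 15 largest falls among called genes with the same sign in 3 lines, up to 4 members per list with the smallest p, the 8 with the largest spread over lines, and the 6 with the smallest p for each of the line effect, the TGFB1 and BMP2 difference and the colonocyte difference. Other members named were chosen after their values were seen. The members and the gene lists were chosen with earlier results of these data known. Promoters were searched with Python 3.11.15 (numpy 2.4.6, pandas 2.3.3), and figures were drawn with matplotlib 3.10.9. Nothing in the labels says whether lines came from separate mice, so p-values measure the spread between these libraries.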

Additional observations from a re-analysis of the deposited data

Results flagged for a closer look

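The response to TNF differed between colonoids and cultured colonocytes in 344 of 10337 genes by limma's test of the difference itself. Among the genes with the largest changes in colonoids, the effect on Ccl20 was lower in colonoids by -1.43 on the log2 scale, and those on C3 and Cd74 were higher by 2.38 and 2.101. These genes were chosen by their effect in colonoids, which enters the difference. All 3 TNF-treated colonocyte libraries moved Ccl20 up, as did all 3 colonoid lines.

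With TGFB1 and BMP2 present, the effect of TNF differed from that of TNF alone in the following genes, by the limma test of the difference with each line paired within each ligand background. That fit was chosen after the fit with 1 offset per line had called no gene. The genes are among the largest rises and falls of TNF alone. That effect enters the difference, so the choice favours smaller changes with the other ligands, and the values are a description. The difference of the log2 changes, with minus without the other ligands, was -2.51 in C3, -1.17 in Cd74, -1.18 in Megf6 and -0.998 in AI747448, all of them smaller rises. Gsdmc4 (-0.792), Cyp2d26 (-0.712) and Gsdmc2 (-1.01) had a more negative effect, and Reg4 (0.658) a less negative one.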

How the results depend on the processing

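The count of 718 genes stayed between 494 and 732 under pseudocounts of 0.1 and 5 CPM, no filter, a minimum of 10 CPM, total reads as scaling, no mean-variance trend and the robust fit, the last added after seeing the data; genes lower numbered 183 at a minimum of 10 CPM. Without the replicate block 16 genes were called (14 higher, 2 lower, 514 at an unadjusted p under 0.05), 12 of the 144 called genes the text names were still called, and the rise of Ccl20 stayed 2.58 with an adjusted p of 0.304. Its rise was 1.74 to 2.99 over the other settings. Leaving out one line gave 394 to 2910 genes, 245 to 1376 higher and 149 to 1534 lower, with 1 residual degree of freedom and a prior close to a common variance. Without L43 the count was 2910, and without L46 it was 394; the cause was not tested. Without L46 31 of the named calls were lost: Ankrd37, Aqp4, Areg, Bcl2l1, Casp8, Cd14, Cd55, Cgn, Cyld, Kit, Lamb3, Lcp1, Ly6a, Marcksl1, Muc4, Mylk, N4bp1, Nfkb1, Pdgfb, Pfkfb3, Psmb9, Skil, Slc12a2, Spink4, Tap2, Tlr5, Tnfaip8, Tnfrsf1b, Traf2, Traf3 and Trib3. Without L42 Kit was lost, and without L43 none of them. With no mean-variance trend 114 of the 144 were still called; Ang4, Bcl3, Cldn4, Cxcl5, Junb, Nlrp6, Noxo1 and Psmb10 were lost there but not without L46. All 144 kept their direction under every setting in which they were tested. Since each moved the same way in all 3 lines, only the change of scaling could have turned one. Among genes that were not called, the change over the fits without one line spanned 0 in Abtb2 (-0.035 to 0.075), Ccl28 (-0.040 to 0.14), Hoxb6 (-0.50 to 0.055, with 0.040 without L46), Igfbp4 (-0.17 to 0.39), Mptx1 (-0.24 to 0.56), Muc2 (-0.29 to 0.13) and Spp1 (-0.22 to 0.38, with -0.018 without L46). The TGFB1 and BMP2 difference called 0 genes in each planned fit and 189 with the replicate block within each ligand background, a fit added after seeing the data. The colonocyte difference called 344 genes, and 65 with no replicate block. Planned edgeR and DESeq2 fits on whole reads were not run. Depth was 42.2 to 61.7 M reads over the listed genes, and which limits the calls more, depth or the number of lines, was not tested.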
